A study of Mus musculus with 14 samples.

Results

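The surface proteins of lipid droplets were examined in the ileum of mice with and without NCoR1 in the intestinal epithelium. They were chosen by gene symbol, with earlier results of these data known, as 10 of the 54532 genes counted. The genes were Plin2, Plin3, Plin4, Plin5, Cidea, Cideb, Cidec, Hilpda, G0s2 and Pnpla2. Of these, 7 had enough counts to be tested and 3 (Plin5, Cidea and G0s2) did not. RNA was sequenced from the scraped ileum mucosa of 14 male mice, 1 library per mouse, after 15 weeks on a high-fat diet (HFD) begun in young adulthood. The sources differ on the exact age at the start of the diet. The 7 control mice (WT) carried NCoR1 flox/flox alleles without Cre, and the 7 knockout mice (IKO) carried the same alleles together with a Cre recombinase driven by the villin promoter, which is active in the epithelium. Both genotypes therefore shared the floxed alleles and the diet, and cells of the mucosa that do not express villin kept NCoR1 in both. The labels call the samples intestinal epithelial cells.

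Lipid droplets are stores of triglyceride and cholesteryl ester bounded by a single layer of phospholipid. Proteins on that layer decide how fast the stored lipid is released. Perilipins coat the droplet and limit the access of lipases, CIDE proteins let droplets fuse and exchange lipid, and the lipase ATGL takes the first fatty acid from a triglyceride while small inhibitor proteins hold it back. In the enterocyte, droplets hold absorbed dietary fat for a time before it is exported in chylomicrons. NCoR1 is a corepressor that keeps the target genes of nuclear receptors silent when no ligand is bound, and several perilipin genes are known targets of the PPAR family of these receptors.

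Libraries held between 14749669 and 21557468 counts on genes. The share of mitochondrially encoded counts was 50.3% for IKO 4, 23.9% for WT 3 and 3.49% to 10.3% for the other 12 libraries. The targeted gene, Ncor1, was at 106 to 195 CPM (counts relative to library size after TMM scaling) in WT and at 31.7 to 64.0 CPM in IKO mice, and its log2 fold change was -1.41 (SE 0.18, adjusted p = 0.00051, edgeR). Enterocyte markers (10 genes, Vil1 and Fabp1 among them) summed to 19025 to 96602 CPM in WT and 46326 to 80013 CPM in IKO mice, so the labelled cell type was present in every library. Smooth muscle markers summed to 15553 CPM in WT 4, against at most 200 in the other WT and at most 1310 in IKO mice. Adipocyte markers (10 genes) summed to 6.28 to 84.5 CPM in WT and 8.20 to 107 CPM in IKO mice. Among all marker lists, the genes called were Fabp1 of the enterocyte and Cd14 of the macrophage list, both higher in IKO mice.

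Among the 7 tested members, Plin2, Plin3 and Pnpla2 rose in IKO mice and 0 fell. A gene was called at an adjusted p under 0.05 in edgeR's quasi-likelihood test, adjusted by Benjamini-Hochberg over 13846 genes. Over all genes tested, 8.67% were called, 4.38% higher and 4.28% lower. For the same 3 members, every IKO mouse lay above every WT mouse, which was so for 1.83% of all genes tested, and for 0 members every IKO mouse lay below, which was so for 1.26%. At an unadjusted p under 0.05 the count was again 3 higher and 0 lower, beside 11.9% and 18.5% of all genes. DESeq2 gave 4 higher and 0 lower, beside 7.62% and 8.86% of the genes it tested. Means are given ± SD over 7 mice per genotype throughout, WT before IKO. The median log2 fold change of the 7 tested members was 0.70, beside -0.09 over all genes (quartiles -0.55 and 0.27), and 6 of the 7 were above 0, beside 43.5% of all genes. In RNA from a whole tissue, fewer cells of a type and less RNA per cell cannot be told apart, and this holds for every level given here.

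**Figure D1:**
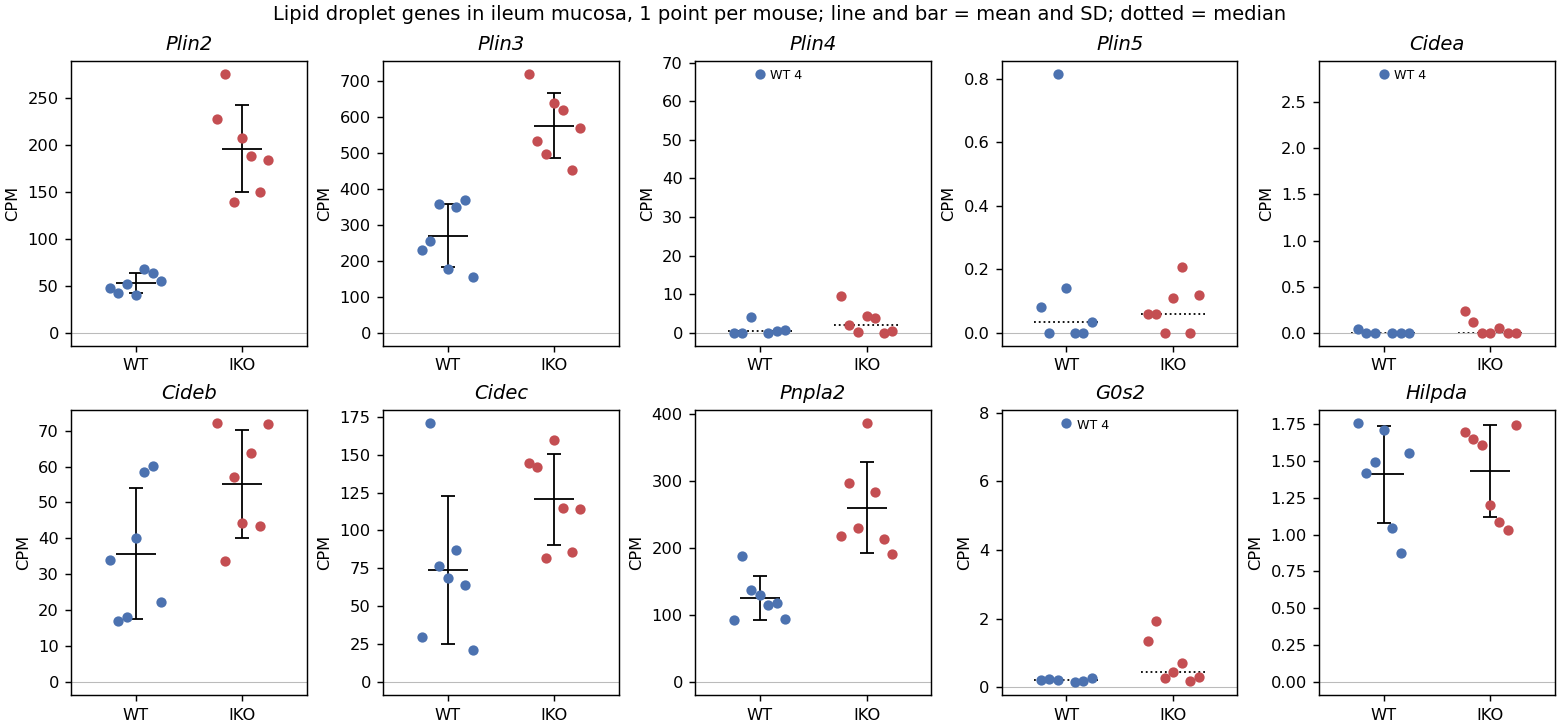
Level of each of the 10 genes (y axis, CPM, linear) in the 7 WT (blue) and 7 IKO (red) mice, 1 point per mouse, with the mean and SD as a line and bar, or, for 4 genes with few counts in most mice, the median as a dotted line. The genotypes are separate for Plin2, Plin3 and Pnpla2, and a single WT mouse, WT 4, stands far above the rest for Plin4 (67.1 CPM), Cidea (2.80 CPM) and G0s2 (7.69 CPM).

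Levels were compared between genes in FPKM (counts per length of gene, scaled for depth). In WT mice the order of the means was Plin3 (69.9 ± 23.2), Pnpla2 (40.5 ± 10.4), Cidec (39.0 ± 25.8), Cideb (23.6 ± 12.2) and Plin2 (14.7 ± 2.99), with the other members under 2 on average. In IKO mice it was Plin3 (152 ± 24.2), Pnpla2 (86.6 ± 23.1), Cidec (65.1 ± 16.2), Plin2 (55.8 ± 13.2) and Cideb (37.2 ± 10.2), followed by Hilpda at 1.30 ± 0.28. Neighbours among the first 5 overlapped in range in both genotypes. Within libraries, Plin3 was above Pnpla2 in every library. Plin2 was above Cideb in every IKO mouse, most narrowly in IKO 3 (39.4 and 38.3). The order of the other neighbours differed between mice and is not firm. In IKO mice every Cideb value (22.6 and above) was far above every Hilpda value. By these means Plin2 was the fifth member in WT and the fourth in IKO mice. That change of place was against Cideb, whose level is uncertain because most of its exonic bases overlap another gene.

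Plin2 encodes perilipin 2 (adipophilin), the perilipin found on droplets of most cells outside adipose tissue, and it is a widely used mark of stored fat. It lies on the minus strand of chromosome 4 (GRCm38, 86648386 to 86670060). Its level in WT mice ran from 40.0 to 68.1 CPM with a median of 52.3. In IKO mice it ran from 139 to 275 CPM with a median of 188. All IKO mice were above all WT mice, and the gap between the highest WT and the lowest IKO mouse was wider than the whole WT range. The means were 52.9 ± 10.4 and 196 ± 46.4 CPM, a 3.70-fold difference (95% interval 2.82 to 4.85). The log2 fold change was 1.89 (SE 0.18, adjusted p = 7.58e-05, edgeR), and Plin2 ranked 3 of 13846 genes by p. Only 0.520% of the genes tested had a larger log2 fold change. Counts were 663 to 1567 per WT and 1889 to 4665 per IKO library, so the sampling error at the lowest count was 3.88%.

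Plin3 encodes perilipin 3 (TIP47), a perilipin that is largely cytosolic and moves onto small droplets as they form. It was the most abundant perilipin in both genotypes. It lies on the minus strand of chromosome 17 (56277476 to 56292873). WT levels ran from 155 to 369 CPM with a median of 254, and IKO levels from 453 to 719 CPM with a median of 569. The genotypes did not overlap, although WT 3, WT 5 and WT 6 (349.5 to 369 CPM) were closer to the IKO mice than the other 4 WT mice were. Means were 270 ± 88.7 and 575 ± 90.6 CPM, a 2.13-fold difference (95% interval 1.54 to 2.93) with a log2 fold change of 1.09 (SE 0.22, adjusted p = 0.00959, edgeR).

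Plin3, Plin4 and Plin5 are neighbours, all on the minus strand within 192283 bases of chromosome 17. A gap of 1797 bases parts Plin4 from Plin5, and 159879 bases part Plin5 from Plin3. Of these 3 genes, Plin3 passed the test, Plin4 did not, and Plin5 had too few counts to be tested. Plin5 was near 0 in most libraries of both genotypes, and Plin4 varied widely within each genotype.

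Plin4 encodes perilipin 4, a coat protein of nascent droplets that is abundant in white adipocytes and muscle. It lies at 56100591 to 56109803. WT mice had 1, 1, 61, 1412, 2, 12 and 20 counts (WT 1 to WT 7) and IKO mice 162, 33, 6, 39, 74, 0 and 7 (IKO 1 to IKO 7). WT 4 alone held 93.6% of the WT counts, and the next WT mouse was at 4.15 CPM beside 67.1 CPM in WT 4. The fitted log2 fold change was -1.85 (SE 1.39, adjusted p = 0.379, edgeR), and without WT 4 it was 1.65 (adjusted p = 0.341, edgeR), so 1 library set its sign. Median levels were 0.582 CPM in WT and 1.94 CPM in IKO mice. At its 3′ end, 17 exonic bases overlap Hdgfl2 on the opposite strand.

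Plin5 encodes perilipin 5, which ties droplets to mitochondria in tissues that burn much fat, such as heart and brown fat. It lies at 56111601 to 56117596. A total of 18 counts fell in WT and 9 in IKO mice, with 0 in 3 WT and 2 IKO libraries. WT 3 had 12 of the WT counts (0.816 CPM), and no other library was above 0.206 CPM. Since 3 counts corresponded to 0.106 to 0.328 CPM depending on the library, a difference at this level was not detectable.

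**Figure D2:**
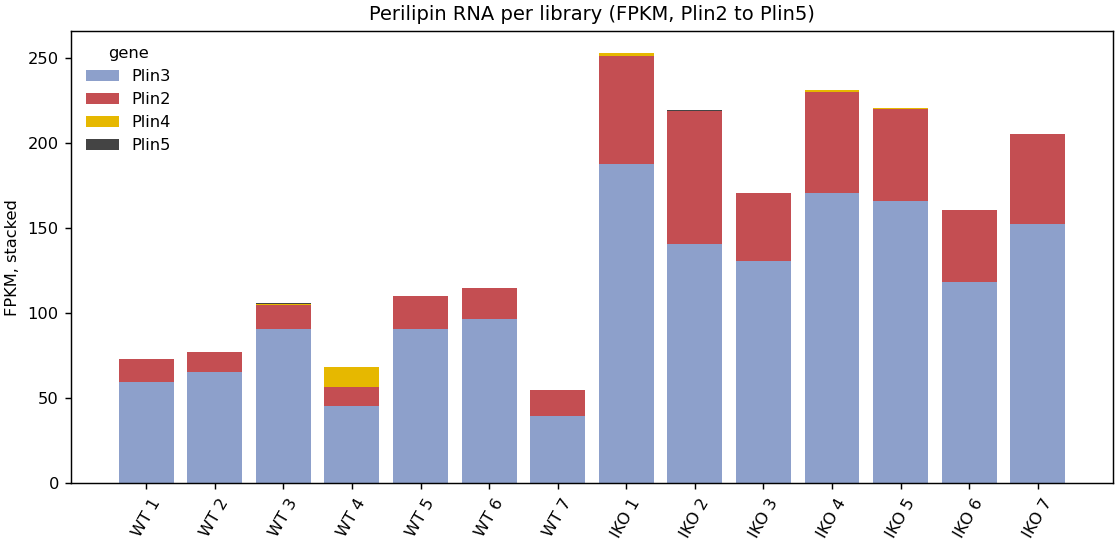
Stacked FPKM of the 4 perilipin genes (y axis, linear) in each of the 14 libraries (x axis). Plin3 (light blue) makes up most of every bar and Plin2 (red) most of the rest, Plin4 (yellow) is visible mainly in WT 4, and the summed bars are 55.0 to 115 in WT and 161 to 253 in IKO mice.

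The summed FPKM of Plin2 to Plin5 was 86.4 ± 23.6 in WT and 209 ± 33.0 in IKO mice, without overlap. Within that sum, the share of Plin2 was 13.5% to 27.8% in WT (median 16.3%) and 23.1% to 35.7% in IKO mice (median 25.8%). The shares overlapped because of 1 WT mouse, WT 7, at 27.8%, where Plin3 was the lowest of all libraries. Plin3 made up 79.7 ± 7.21% of the sum in WT and 73.1 ± 4.10% in IKO mice. The ratio of Plin2 to Plin3 in FPKM was 0.227 ± 0.0760 in WT and 0.368 ± 0.0848 in IKO mice. Both are descriptions without a test.

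CIDE proteins gather where droplets touch. Cidec (FSP27) is the member of this family that makes large droplets in white fat, and Cideb is the form of liver and intestine, where it also takes part in loading lipid onto lipoproteins. Neither passed the test.

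Cidec lies on the minus strand of chromosome 6 (113424634 to 113435760). WT levels ran from 21.4 to 171 CPM with a median of 68.8, and IKO levels from 81.9 to 160 CPM with a median of 115. WT 2 was the highest of all 14 mice, while all 7 IKO mice were above the WT median. Means were 74.0 ± 49.0 and 120 ± 29.8 CPM. The log2 fold change was 0.70 (SE 0.36, adjusted p = 0.194, edgeR), with a fold of 1.63 (95% interval 0.964 to 2.75). Without WT 2 the log2 fold change was 1.06 (adjusted p = 0.0427, edgeR), past the threshold. It passed in no other of the 14 fits that left out 1 mouse. The lowest of these was 0.53 without WT 7 (adjusted p = 0.282, edgeR).

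Cideb lies on the minus strand of chromosome 14 (55754050 to 55758458). WT levels ran from 16.9 to 60.1 CPM with a median of 34.1, and IKO levels from 33.7 to 72.1 CPM with a median of 57.1. The genotypes overlapped, with 3 IKO mice above the highest WT mouse. Means were 35.8 ± 18.2 and 55.2 ± 15.1 CPM, a fold of 1.54 (95% interval 0.996 to 2.39) and a log2 fold change of 0.63 (SE 0.30, adjusted p = 0.168, edgeR). Of the 1488 exonic bases of Cideb, 1136 overlap Nop9 on the opposite strand. Strand was not stated for the counting, so reads of these genes may be mixed and the level of Cideb is uncertain.

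Cidea, known from brown fat, lies on chromosome 18 (67343564 to 67367794). It had 60 counts in WT mice, of which 59 were in WT 4, and 7 in IKO mice. A total of 5 WT and 4 IKO libraries had 0 counts. The summed FPKM of the 3 CIDE genes was 62.9 ± 26.4 in WT and 102 ± 18.3 in IKO mice, with 4 IKO mice above the highest WT mouse. Cidec made up 40.8% to 89.0% of it in WT and 53.5% to 77.1% in IKO mice. The sum and this share carry the uncertainty in the level of Cideb.

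Pnpla2 encodes ATGL, the lipase that starts the breakdown of droplet triglyceride. It lies on the plus strand of chromosome 7 (141455198 to 141460743). WT levels ran from 93.1 to 189 CPM with a median of 118, and IKO levels from 192 to 387 CPM with a median of 230. The genotypes did not overlap, but the highest WT mouse, WT 2, and the lowest IKO mouse, IKO 7, were close together, and IKO 4 was the highest. Means were 125 ± 32.6 and 260 ± 67.8 CPM, a 2.08-fold difference (95% interval 1.55 to 2.80) with a log2 fold change of 1.06 (SE 0.20, adjusted p = 0.00804, edgeR). The ratio of Plin2 to Pnpla2 in FPKM was 0.387 ± 0.125 in WT and 0.666 ± 0.169 in IKO mice, with 6 of 7 IKO mice above the highest WT mouse.

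The inhibitors of this lipase had little RNA. Hilpda, a small protein induced by fatty acids and hypoxia that binds ATGL, lies on the plus strand of chromosome 6 (29272488 to 29275446). It had 18 to 44 counts per WT and 11 to 29 per IKO library, or 1.41 ± 0.33 and 1.43 ± 0.31 CPM. The ranges almost coincided, at 0.874 to 1.76 CPM in WT and 1.03 to 1.75 CPM in IKO mice. The fold was 1.02 (95% interval 0.699 to 1.48, adjusted p = 0.959, edgeR). The interval thus held differences from 0.699-fold to 1.48-fold, and the log2 fold change of 0.02 turned to -0.057 under upper-quartile scaling.

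G0s2 encodes another direct inhibitor of ATGL, abundant in fat and liver. It lies on the minus strand of chromosome 1 (193272161 to 193273217), within the span of Lamb3 but without shared exonic bases. WT mice had 5, 4, 3, 162, 3, 4 and 8 counts (WT 1 to WT 7) and IKO mice 23, 33, 5, 4, 14, 3 and 5 (IKO 1 to IKO 7). WT 4 held 85.7% of the WT counts. Of the IKO mice, 6 were above the WT median, with medians of 0.204 CPM in WT and 0.437 CPM in IKO mice. With no filter the log2 fold change was -0.73 (SE 0.90, adjusted p = 0.617, edgeR), and with DESeq2 it was 1.63 (SE 0.59, adjusted p = 0.0416). Sign and call thus differed between these fits. The mean was 1.28 CPM in WT mice, or 0.217 CPM without WT 4, beside 0.743 CPM in IKO mice. The part of WT 4 in the difference between the fits was not tested. The FPKM of G0s2 and Hilpda together, relative to Pnpla2, was 0.0253 to 0.242 in WT and 0.0124 to 0.0426 in IKO mice, and WT 4 was the highest.

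**Figure D3:**
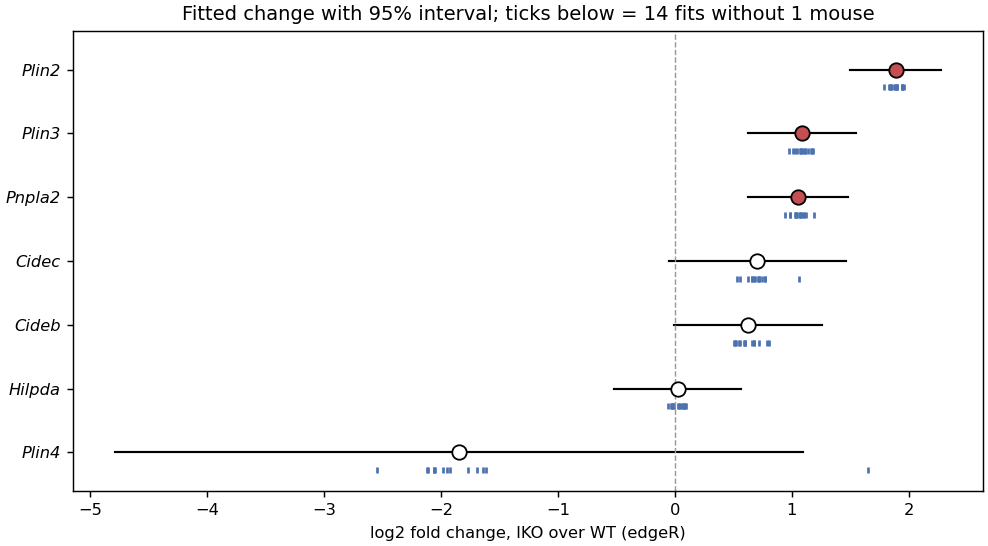
Log2 fold change of the 7 tested genes, IKO over WT (x axis, edgeR), with the 95% interval as a line, filled circles for an adjusted p under 0.05, and blue ticks for the 14 fits that leave out 1 mouse each. The ticks of Plin2 (1.79 to 1.96), Plin3 (0.98 to 1.18) and Pnpla2 (0.94 to 1.19) stay near the full fit, and a single tick of Plin4, without WT 4, lies at 1.65 on the other side of 0.

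For Plin4, Cidea and G0s2, most WT counts were thus in WT 4, the library with the most smooth muscle RNA. Des, the muscle intermediate filament gene, had 62171 counts in WT 4 and at most 2730 in any other library. In WT 4, adipocyte markers summed to 83.4 CPM, the highest WT sum being 84.5 CPM in WT 3. Adipoq, the adipocyte hormone gene, had 39 counts in WT 4, against 90 in IKO 1 and 81 in IKO 5, and was at 0 in 2 libraries. Lep, the leptin gene, was highest in WT 4 with 126 counts, and Adrb3 was highest there with 223. Of 3 brown fat markers, Cox8b had 44 counts in WT 4 (2.09 CPM) and at most 4 in any other library, Ucp1 was at 0 in 13 of 14 libraries, WT 4 included, and Elovl3 was at 0 in all 14. The part of these cells in the levels of Plin4, Cidea and G0s2 was not tested.

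For Plin2, Plin3 and Pnpla2, the adipocyte and smooth muscle sums overlapped between the genotypes, and 0 of the 4 tested adipocyte and 0 of the 8 tested smooth muscle markers were called (edgeR; 1 adipocyte marker higher and 1 smooth muscle marker lower at an unadjusted p under 0.05, and 0 of either in DESeq2). Plin1, the perilipin of adipocytes, had 106 counts in WT and 168 in IKO mice over all libraries, with 75 in IKO 1 and 68 in IKO 5, and was not tested. The median adipocyte sum was 13.6 CPM in WT and 21.9 CPM in IKO mice. That of smooth muscle was 186 and 140 CPM. Outside WT 4, IKO 1 and IKO 2, most of the smooth muscle sum came from Mylk, so its medians mainly follow that gene. In WT 5, Mylk had 3709 counts and Des 27, while Des had 2730 counts in IKO 1 and 1986 in IKO 2. The other adipocyte markers had too few counts to be tested. The part of these cells in the levels of Plin2, Plin3 and Pnpla2 was not tested. Without WT 3, WT 4 and IKO 4 together, the log2 fold change was 1.80 for Plin2 (adjusted p = 0.00116), 1.06 for Plin3 (adjusted p = 0.0334) and 0.98 for Pnpla2 (adjusted p = 0.0323), all by edgeR. With the sample number as a block, these 3 members again passed, where 1.63% of all genes were called higher.

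**Figure D4:**
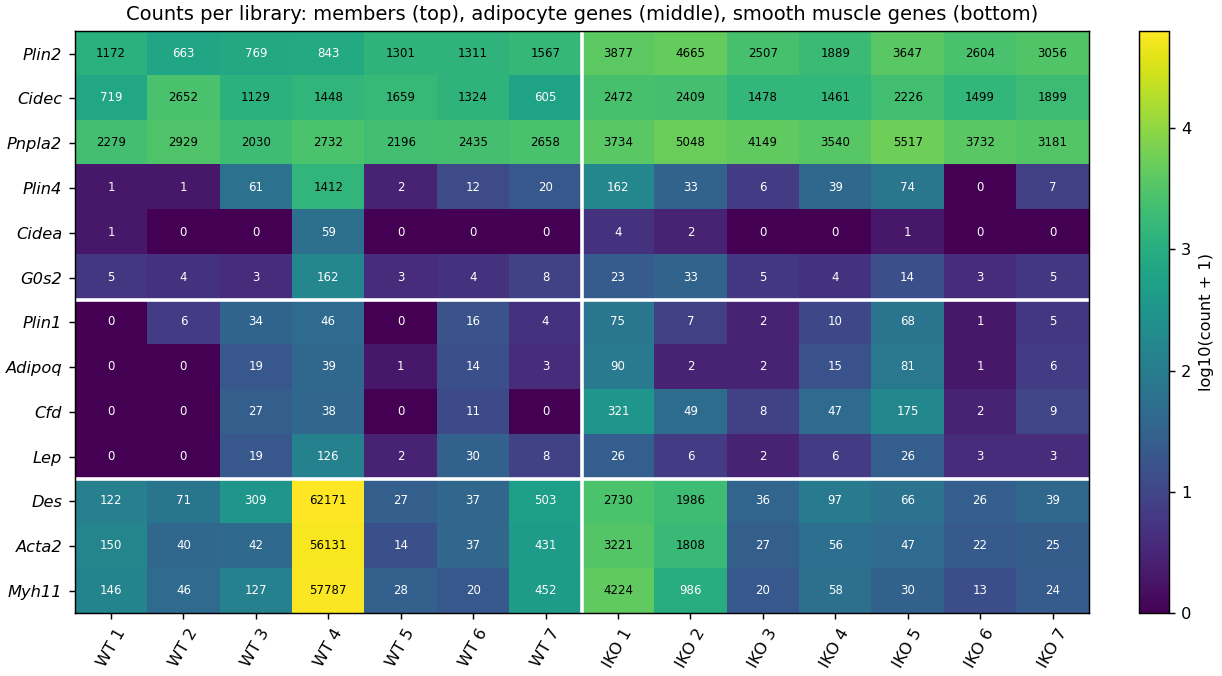
Counts per library (numbers in cells; colour is log10 of the count plus 1) for 6 of the genes studied, 4 adipocyte genes and 3 smooth muscle genes, with WT libraries left and IKO libraries right of the white line. WT 4 has 1412 counts of Plin4, 59 of Cidea and 162 of G0s2 together with 62171 of Des, while IKO 1 and IKO 5 have the most Adipoq (90 and 81).

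The promoters of the 3 genes that rose were compared, since they moved together. Each sequence below runs 5′ to 3′ on the gene's strand, from 250 bases before to 10 bases after the RefSeq start (GRCm38.p6), and capitals mark matches to the motifs searched. The windows are chr4:86670050-86670309 for Plin2, chr17:56290502-56290761 for Plin3 and chr7:141454938-141455197 for Pnpla2. The RefSeq start of Plin3 lies 2362 bases inside the gene as the files give it.
Plin2: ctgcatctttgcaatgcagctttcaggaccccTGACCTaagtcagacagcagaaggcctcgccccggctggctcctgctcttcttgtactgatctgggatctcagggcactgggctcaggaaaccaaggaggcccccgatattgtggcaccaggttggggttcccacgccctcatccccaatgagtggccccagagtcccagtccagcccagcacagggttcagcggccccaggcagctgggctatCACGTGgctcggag
Plin3: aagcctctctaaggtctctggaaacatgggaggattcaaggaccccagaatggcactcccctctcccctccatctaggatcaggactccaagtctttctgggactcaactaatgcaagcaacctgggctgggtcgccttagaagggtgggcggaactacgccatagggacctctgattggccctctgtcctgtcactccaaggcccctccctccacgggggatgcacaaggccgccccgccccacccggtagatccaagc
Pnpla2: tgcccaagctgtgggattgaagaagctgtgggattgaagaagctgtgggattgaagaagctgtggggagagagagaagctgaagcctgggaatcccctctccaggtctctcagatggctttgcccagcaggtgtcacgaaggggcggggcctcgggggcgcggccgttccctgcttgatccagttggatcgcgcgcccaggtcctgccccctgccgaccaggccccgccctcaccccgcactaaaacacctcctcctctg

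The PPAR element is a direct repeat of AGGTCA with 1 base between. Neither this repeat nor a looser form, AGGNCA repeated with 1 base between, was on either strand in any of the 12 promoters of the 9 members that RefSeq covered (300 bases each), while they were in 0.0396% and 0.381% of 32851 mouse promoters. The single AGGTCA was found in Plin2, beginning 218 bases before the start and read there as TGACCT, and in Plin5, beside 16.3% of all promoters. CACGTG, the E-box, was found among the members in Plin2 only, beginning 4 bases before the start, and in 7.15% of all promoters. It contains ACGTG, found in Plin2 and Hilpda and in 19.6% of all promoters. TATAAA was in Cideb alone and in 13.6% of all promoters. Capitals are absent from the Plin3 and Pnpla2 windows because no motif searched matched there, which says only that these letters are not in these windows.

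Other genes of the droplet were described in 3 lists written from general knowledge, but with earlier results of these data known. Their counts are read beside the shares over all genes, which were 8.67% called by edgeR, 11.9% higher and 18.5% lower at an unadjusted p under 0.05, and 7.62% higher and 8.86% lower in DESeq2. Of 16 tested genes for the synthesis of neutral lipid and the budding of droplets, 1 was higher and 0 lower, or 6.25% (edgeR; 4 and 1 at an unadjusted p under 0.05, and 4 and 0 in DESeq2), with a median log2 fold change of 0.23. The gene called was Acsl3, the acyl-CoA synthetase of nascent droplets, at 24.1 ± 8.20 in WT and 57.9 ± 27.7 CPM in IKO mice (log2 fold change 1.27, SE 0.37, adjusted p = 0.0455, edgeR). Its call was lost in 11 of the 14 fits that left out 1 mouse. The triglyceride synthases Dgat1 (0.14, adjusted p = 0.796) and Dgat2 (0.54, adjusted p = 0.249), the lipid-partitioning gene Fitm2 (0.55, adjusted p = 0.211) and seipin, Bscl2 (-0.13, adjusted p = 0.635), did not pass.

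Of 14 tested genes for the hydrolysis of droplet lipid, 2 were higher and 0 lower, or 14.3% (edgeR; 5 and 0 at an unadjusted p under 0.05, and 3 and 0 in DESeq2), with a median of 0.30. Abhd6, a monoacylglycerol lipase, was at 184 ± 55.1 in WT and 331 ± 57.3 CPM in IKO mice (log2 fold change 0.84, SE 0.21, adjusted p = 0.0244, edgeR), and its call was lost without WT 7, IKO 1 or IKO 5. Ldah, a droplet-bound hydrolase, had a log2 fold change of 0.46 (SE 0.13, adjusted p = 0.0444, edgeR), lost in 11 of the 14 fits. Abhd5, the coactivator of ATGL also known as CGI-58, was at 17.4 ± 3.23 and 23.3 ± 7.40 CPM, a log2 fold change of 0.42 (SE 0.19, adjusted p = 0.156, edgeR). For Lipe, hormone-sensitive lipase, the log2 fold change was 0.27 (adjusted p = 0.583). Monoacylglycerol lipase, Mgll, had one of 0.30 (adjusted p = 0.731), which became 1.25 (adjusted p = 0.0429) without WT 4. It passed in no other left-out fit, and without IKO 2 it was 0.0027 (adjusted p = 0.998, edgeR).

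Of 26 tested genes for other droplet surface proteins, 3 were higher and 0 lower, or 11.5% (edgeR; 7 and 3 at an unadjusted p under 0.05, and 5 and 0 in DESeq2), with a median of 0.13. Nsdhl, a sterol-synthesis enzyme that can sit on droplets, was at 16.7 ± 4.94 in WT and 46.2 ± 9.97 CPM in IKO mice, without overlap (log2 fold change 1.47, SE 0.19, adjusted p = 0.000569, edgeR). Hsd17b11, a droplet-bound dehydrogenase, was at 539 ± 188 and 1267 ± 443 CPM (log2 fold change 1.23, SE 0.32, adjusted p = 0.0320, edgeR), and its call was lost in 8 of the 14 fits. Ces1g, a carboxylesterase, had a log2 fold change of 1.35 (SE 0.37, adjusted p = 0.0364, edgeR), lost in 8 of the 14 fits, and its close paralogs may share reads with it.

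**Figure D5:**
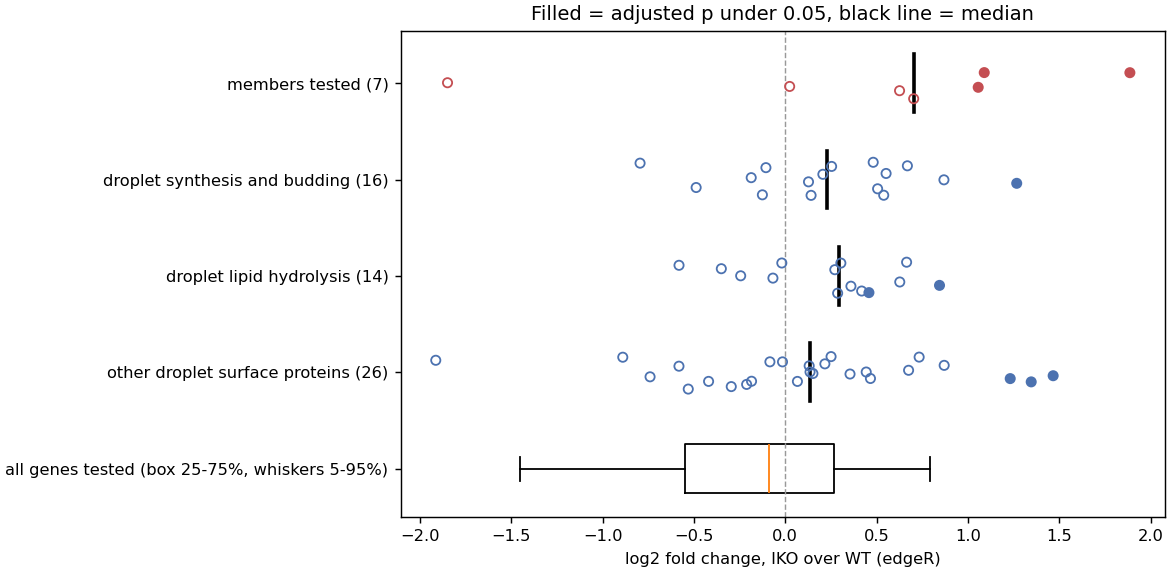
Log2 fold change, IKO over WT (x axis, edgeR), of the 7 tested members (red), of the genes of 3 other droplet lists (blue, tested genes in parentheses) and of all 13846 genes tested (box for the quartiles, whiskers from the 5th to the 95th percentile). Filled points passed an adjusted p of 0.05 and black lines are medians, which were 0.70 for the members, 0.23, 0.30 and 0.13 for the lists and -0.09 for all genes.

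The genes whose pattern over the 14 mice was most like that of Plin2 were Pnp2, Acot1 and Akr1a1. Likeness was the root mean square difference of log2 CPM after each gene was set to a mean of 0 and an SD of 1, and it was 0.218, 0.232 and 0.287, beside a median of 1.41 over all genes. The difference between the genotypes is part of this measure, and likeness within each genotype was not examined. The log2 fold changes of Pnp2, Acot1 and Akr1a1 were 1.72, 3.25 and 0.79. Pnp2 encodes a purine nucleoside phosphorylase, Acot1 an acyl-CoA thioesterase and Akr1a1 an aldehyde reductase. Pnp2 and Acot1 have close paralogs, Pnp and Acot2, with which reads may be shared.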

How the data were processed

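RNA from the ileum mucosa of 14 mice was measured, 1 library each. Per the study's methods and the submitters' processing notes, libraries made with a NEBNext Ultra kit were sequenced as paired ends, aligned with HISAT2 2.0.5 to mm10 and counted with featureCounts 1.5.0-p3. Strand is not given in the sources used here. The counts deposited by the authors are whole reads per gene without normalization. The FPKM deposited by the authors equal these counts divided by gene length and by 1 factor per sample. Genotypes come from the sample titles, and columns named KO were read as IKO. Columns of gene position and name were used for identity.

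After filterByExpr and TMM scaling, the genotypes were compared by the functions glmQLFit and glmQLFTest of edgeR 4.0.16 in R 4.3.3. The model held genotype alone. P values were adjusted by Benjamini-Hochberg over 13846 genes, with a threshold of 0.05. Intervals are at 95%. Log2 levels add a prior count of 2. Depth was 14749669 to 21557468 counts. The intervals come from the standard error of the edgeR fit, which includes variation between mice. The sampling error given for Plin2 covers counting alone. Each library is 1 mouse by its label. No 2 libraries agreed within sampling noise (lowest chi-square per degree of freedom 18.1 over 91 pairs). The sample numbers are not stated to pair mice, and 1 of 7 same-number pairs correlated above 0.1. The method was tested on simulated counts.

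Alternatives were DESeq2 1.42.0, RLE and upper-quartile scaling, mitochondrially encoded genes left out, a minimum of 10 counts in each library, no filter, limma 3.58.1 on log2(FPKM + 1) and log2(FPKM + 0.1) with a filter (FPKM over 0.5 in 7 or more libraries) or without, limma-voom with sample weights, the sample number as a block, each mouse left out, and WT 3, WT 4 and IKO 4 left out together. The members, lists and markers were chosen with earlier results of these data known. Named are the members, Ncor1, the called genes of 3 droplet lists (at most 6 each) with Plin1, Abhd5, Lipe, Mgll, Dgat1, Dgat2, Bscl2 and Fitm2, the 3 genes nearest to Plin2, and cell markers. Promoters are from RefSeq. No promoter of Cidea was used here.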

Additional observations from a re-analysis of the deposited data

Results flagged for a closer look

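Values were flagged when the highest or lowest of the 7 mice of a genotype stood apart by more than Dixon's 95% critical value for 7 samples. This was so in 15 of 46 groups. Chance gives about 1 in 20 for normally distributed values, which CPM, shares and ratios need not be. The measures also share genes and mice, so the 15 are not read as an excess over chance. A total of 5 of the 15 were in WT 4, namely Plin4 (67.1 CPM), Cidea (2.80 CPM), G0s2 (7.69 CPM), the share of Plin4 in perilipin FPKM (16.6%) and the FPKM of G0s2 plus Hilpda relative to Pnpla2 (0.242). In WT 3, Plin5 (0.816 CPM), its share of perilipin FPKM (0.354%) and the share of mitochondrially encoded counts (23.9%) were flagged. In IKO 4, the share of mitochondrially encoded counts was 50.3%, and Pnpla2 was highest in this mouse at 387 CPM.

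The shares of Plin2 and Plin3 also stood apart in other mice. In IKO 2, Plin2 made up 35.7% and Plin3 64.2% of the summed FPKM, with a Plin2 to Plin3 ratio of 0.556. In WT 7, Plin2 made up 27.8% with a ratio of 0.387. The ratio of Cidec to Cideb in FPKM was 8.08 in WT 2, the mouse with the most Cidec of all 14. This ratio carries the uncertainty in the level of Cideb.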

How the results depend on the processing

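Across 26 alternatives, 14 of which left out 1 mouse each, Plin2 (log2 fold change 1.65 to 1.96), Plin3 (0.97 to 1.18) and Pnpla2 (0.94 to 1.19) kept their direction and their call, with highest adjusted p of 0.0103, 0.0493 and 0.0323. Members called higher were 3 or 4, the fourth being Cidec without WT 2 and in limma-voom (0.96, adjusted p = 0.0448), and G0s2 in DESeq2. Members called lower were 0 throughout. With the replicate block, Plin2 was at 1.87 (adjusted p = 0.0103), Plin3 at 1.15 (adjusted p = 0.0493) and Pnpla2 at 1.06 (adjusted p = 0.0254). No pairing of mice by number is stated, and 1 of 14 samples correlated best with its own number, which cannot exclude a weak pairing.

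The sign of Plin4 turned to 1.52 in DESeq2, 0.21 with the block, 1.03 in limma-voom, 3.07 without the 3 libraries that stand apart and 1.65 without WT 4 (left-out range -2.55 to 1.65). That of Hilpda turned to -0.057 with upper-quartile scaling, to -0.040 with at least 10 counts and in 6 left-out fits (range -0.061 to 0.093). Akr1a1 lost its call with the block and without the 3 libraries.

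Genes called higher numbered 607, against 1189 in DESeq2, 346 with no filter, 226 with the block, 993 in limma-voom and 276 without the 3 libraries. Left-out fits gave 335 to 684, the lowest without IKO 5. Genes called lower numbered 593, against 1382 in DESeq2, 910 with upper-quartile scaling, 162 with no filter, 328 and 317 in limma on log2(FPKM + 1) and log2(FPKM + 0.1), 160 in limma with no filter, 136 with the block, 896 in limma-voom and 157 without the 3 libraries. Left-out fits gave 180 to 687, the lowest again without IKO 5. Upper-quartile scaling moved the share of higher among all calls from 50.6% to 37.8%, and FPKM moved it to 68.3% and 69.0%, with the median of all genes shifted by 0.12 and 0.13. The causes were not tested.

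Of the synthesis list, 4 genes were higher in DESeq2, 3 in limma-voom, 0 with no filter, with the block and in the 3 limma fits on FPKM, and 0 to 2 in left-out fits (lower 0 to 1, the 1 without WT 2). Of the hydrolysis list, 1 was higher with upper-quartile scaling, with at least 10 counts, in limma with no filter and without the 3 libraries, 0 with no filter and with the block, and 0 to 3 in left-out fits. Of the surface list, 5 were higher in DESeq2, 6 in limma-voom (with 1 lower), 1 with no filter, in limma with no filter and with the block, and 1 to 4 in left-out fits. Nsdhl kept its call in all 26. Depth limits Plin5 and Cidea, at 0 in 5 and 9 of 14 libraries, and G0s2, at 3 to 8 counts in most.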
